A study of Mus musculus with 6 samples.

Results

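Ighv1-80 and Ighv1-82, written IGHV1-80 and IGHV1-82 in the deposited V calls, are a pair of heavy-chain V genes of the mouse immunoglobulin locus and members of the large Ighv1 (J558) family. They were selected on their shares in these same 6 libraries, which were larger among productive than among out-of-frame joins. Their sequences were those whose first V call, with the allele removed, named either gene. This gave 9362 of 228609 sequences, 4015 for Ighv1-80 and 5347 for Ighv1-82.

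A developing B cell joins 1 V, 1 D and 1 J gene to make its heavy chain. A join that keeps the reading frame without a stop codon is productive and can be tested as a receptor protein. An out-of-frame join makes no heavy chain and stays in a mature B cell beside a productive join on the other allele, so that it carries the V gene without that protein having been selected. The CDR3 is the stretch across the join that contacts antigen, and its first residues come from the end of the V gene.

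The 6 libraries were VDJ-seq libraries, which read these joins from genomic DNA rather than RNA. All came from spleens of C57BL/6 animals at 12 weeks of age, with B cells enriched by magnetic removal of other cells. The groups were 500 ng, 1 µg, 2.5 µg and 5 µg of starting DNA, and a pair named Q5_vent and Q5_Q5 after the DNA polymerases combined, whose amount of DNA the sources used here do not state. Each group had 1 library, with 8704 to 112320 sequences after removal of duplicates. The sources used here do not state the number of mice or whether libraries share a DNA sample, so tests over the 6 libraries measure only the spread between these libraries, which may be technical. Genomic DNA carries no marker gene expression against which the cell type could be checked. Intervals are 95% intervals that cover counting error only.

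Ighv1-80 lies at chromosome 12, 115912344 to 115912637, and Ighv1-82 at 115952538 to 115952831 (GRCm38.p6, RefSeq, both annotated as V gene segments of 294 bases). They are 39.9 kb apart with Ighv1-81 (115920279 to 115920572) between them. The V sequence of each gene is printed because the sequences that carry the finding differ so little. Each was read from deposited sequences that span all 294 bases and match the caller's germline exactly, 677 for Ighv1-80 and 882 for Ighv1-82. They run 5′ to 3′ in coding direction, and capitals mark the bases at which the genes differ.
Ighv1-80: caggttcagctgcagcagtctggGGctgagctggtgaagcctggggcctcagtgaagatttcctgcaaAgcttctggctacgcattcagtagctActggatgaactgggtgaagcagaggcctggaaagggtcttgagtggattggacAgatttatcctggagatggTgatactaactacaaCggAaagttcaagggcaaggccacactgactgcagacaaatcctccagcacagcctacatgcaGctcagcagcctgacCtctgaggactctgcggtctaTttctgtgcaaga
Ighv1-82: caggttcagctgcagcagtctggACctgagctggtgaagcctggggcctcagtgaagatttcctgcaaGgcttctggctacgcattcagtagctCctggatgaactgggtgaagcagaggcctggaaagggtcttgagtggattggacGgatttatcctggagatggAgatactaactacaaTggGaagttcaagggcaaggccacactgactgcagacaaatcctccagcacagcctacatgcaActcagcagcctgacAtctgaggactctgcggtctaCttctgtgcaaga

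The genes differed at 11 of 294 bases and were 96.3% identical. With positions counted from 1 at the first base printed, the Ighv1-80 base first and the Ighv1-82 base last, the differences were G24A, G25C, A69G, A95C, A149G, T168A, C183T, A186G, G246A, C261A and T282C. Both end in gcaaga, the bases that open the CDR3 with alanine and arginine. Among 57 Ighv1 genes whose sequence could be read the same way from the first base nearly to the end, each was the other's nearest relative, with 11 differences. The next nearest stood well apart, at 29 differences: Ighv1-77 for Ighv1-80, and Ighv1-66, Ighv1-83 and Ighv1-84 for Ighv1-82.

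Calls of Ighv1-82 named that gene alone in every sequence. Of Ighv1-80 calls 85% named it alone, and the other 15% also listed IGHV1S50, Ighv1-84 or IGHV1S19. Those several-gene calls had short V alignments, with a median of 61 bases where Ighv1-84 and IGHV1S50 were both listed, against 206 bases for calls of Ighv1-80 alone. The productive share of that class was 90.3%, against 91.7% for calls of Ighv1-80 alone.

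Productive joins made up 91.6% of Ighv1-80 sequences (3677 of 4015, Wilson interval 90.7 to 92.4) and 90.1% of Ighv1-82 sequences (4816 of 5347, interval 89.2 to 90.8). The other Ighv1 genes together stood at 79.5% and all V genes at 73.2%. Out-of-frame joins numbered 263 for Ighv1-80 and 429 for Ighv1-82, so there were 14.0 and 11.2 productive sequences per out-of-frame sequence, against 4.75 in the other Ighv1 genes. These are the values that chose the genes, and they are given as a description with no test.

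In each library separately, both genes lay above the other Ighv1 genes, while the order within the pair varied. With the inputs taken from lowest to highest, the productive share of Ighv1-80 was 91.8%, 93.3%, 90.9% and 91.2%, and it was 91.1% in Q5_vent and 95.5% in Q5_Q5. For Ighv1-82 it was 91.9%, 90.8%, 90.5%, 89.4%, 90.8% and 90.9% in the same order. Ighv1-82 was the higher of the pair at 500 ng, by less than 0.1 points, and Ighv1-80 in the other libraries. The other Ighv1 genes ranged from 78.9% to 80.2%, and their range did not overlap with that of either gene. The Q5_Q5 library, with the highest share of Ighv1-80, had only 10 out-of-frame sequences of that gene, and the 500 ng library 8.

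**Figure D1:**
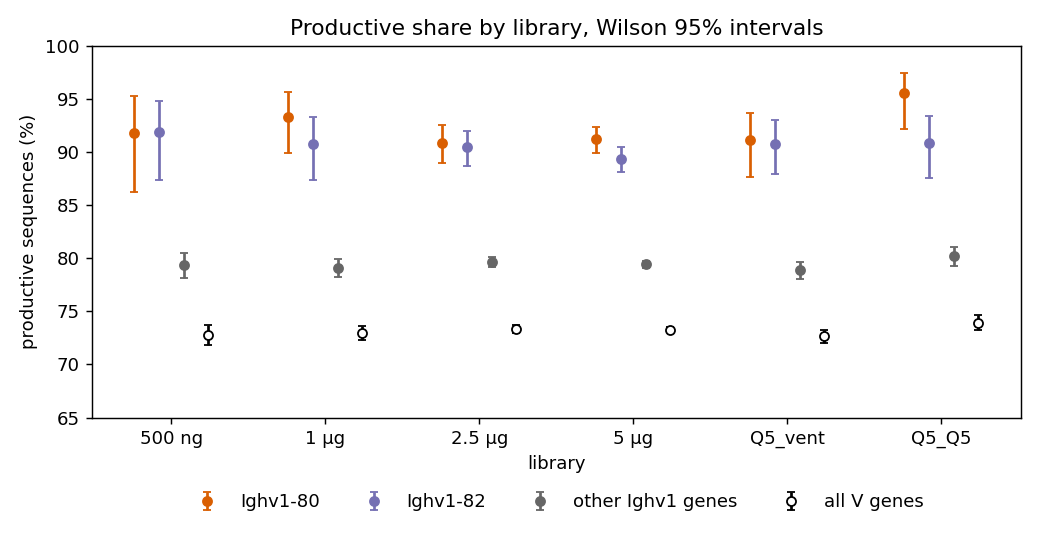
Percent of sequences that were productive (vertical axis) in each of the 6 libraries (horizontal axis) for Ighv1-80, Ighv1-82, the other Ighv1 genes and all V genes, with Wilson 95% intervals as bars. Both genes sit between 89.4% and 95.5% in all 6 libraries, above the other Ighv1 genes at 78.9% to 80.2%.

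As a share of each class, Ighv1-80 made up 2.20% of productive sequences and 0.517% of out-of-frame sequences over the 6 libraries, a ratio of 4.25 (Katz interval 3.75 to 4.81). Ighv1-82 made up 2.88% and 0.843%, a ratio of 3.41 (interval 3.09 to 3.77). Among the 89 V genes with at least 500 sequences these were the highest and second highest ratios. The genes moved far between the orders of use: Ighv1-80 ranked 15 by its share of productive and 72 by its share of out-of-frame sequences, and Ighv1-82 ranked 6 and 49. Both intervals lay above 1, as did those of 58.4% of the 89 genes, a background from which nothing is read here because the contrast chose the genes.

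Within single libraries the log2 ratio of Ighv1-80 was 2.39, 2.62, 2.01 and 2.00 from the lowest input to the highest, 1.89 in Q5_vent and 2.81 in Q5_Q5, on average 2.29 ± 0.38 (SD, n = 6 libraries). For Ighv1-82 the log2 ratios were 1.99, 1.87, 1.83, 1.66, 1.96 and 1.88 in the same order, on average 1.87 ± 0.12. The ranges of the genes overlapped, since Ighv1-80 in Q5_vent fell below Ighv1-82 in Q5_vent and at 500 ng. Pooling all sequences, which weights the deep libraries most, gave 2.09 for Ighv1-80 and 1.77 for Ighv1-82.

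**Figure D2:**
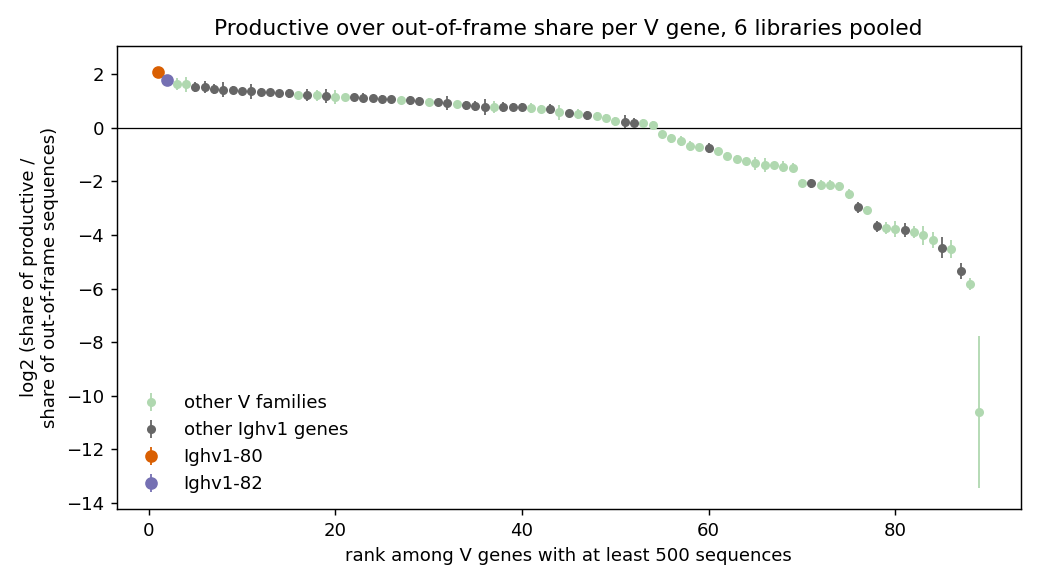
Log2 of the share of productive over the share of out-of-frame sequences (vertical axis) for the 89 V genes with at least 500 sequences, ordered by rank (horizontal axis), with 95% Katz intervals as bars and the 6 libraries pooled. Ighv1-80 at 2.09 and Ighv1-82 at 1.77 lead the order, and 54 of the 89 genes lie above 0.

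Counting clones, each a distinct combination of V gene, J gene and CDR3 bases, changed little because nearly every join was seen a single time. The 4015 Ighv1-80 sequences were 3961 clones and the 5347 Ighv1-82 sequences 5269 clones. By clones 91.6% of Ighv1-80 (interval 90.7 to 92.4) and 90.0% of Ighv1-82 (interval 89.2 to 90.8) were productive, against 79.4% of the other Ighv1 genes. Out-of-frame clones numbered 259 and 424. The ratios of shares by clones were 4.22 for Ighv1-80 and 3.37 for Ighv1-82, again the highest and second highest of the 89 genes, of which 58.4% had an interval above 1.

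Joins that kept the frame but held a stop codon formed a separate class, outside both sides of the ratio. Among in-frame joins they made up 2.00% for Ighv1-80 (75 of 3752, Wilson interval 1.60 to 2.5) and 2.07% for Ighv1-82 (102 of 4918, interval 1.71 to 2.51), against 4.57% in the other Ighv1 genes and 5.96% in all other V genes. This share includes the productive sequences that chose the genes, so it is not independent of the choice.

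The V genes most like the pair in their ratio were taken as the 5 nearest in pooled log2 ratio among the 89. For Ighv1-80 they were Ighv1-82, then Ighv14-2 with 1.62, Ighv14-1 with 1.62, Ighv1-22 with 1.52 and Ighv1-42 with 1.52. For Ighv1-82 the nearest was Ighv14-2 at a distance of 0.15, followed by Ighv14-1, Ighv1-22, Ighv1-42 and Ighv1-80. Ighv14-1 begins at position 113931953 and Ighv14-2 at 113994469 of chromosome 12, far from the pair.

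Genes of the same stretch of chromosome 12 were mostly productive too, at lower ratios. Of the 10 listed genes from Ighv1-74 to Ighv1-85, 7 had at least 500 sequences, and all 7 had a log2 ratio above 0, with a median of 1.02, against 0.54 over all 89 genes and 1.01 over the 42 Ighv1 genes among them. Ighv1-81, which lies between the pair, had 1.30 (ratio 2.45, interval 2.24 to 2.68), and Ighv1-85 had 1.43. Below 500 sequences, Ighv1-84 had 1.68 on 345 sequences, and Ighv1-79 and Ighv1-83 ran the other way, at -4.05 and -3.73 on 164 and 171 sequences. The count and ratio of Ighv1-84 depend on the first-call rule. By that rule, 339 sequences that listed Ighv1-80, Ighv1-84 and IGHV1S50 were counted to Ighv1-80. In sequence, Ighv1-83 and Ighv1-84 each had 30 differences from Ighv1-80 and 29 from Ighv1-82.

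As a share of all sequences, Ighv1-80 ranged from 1.64% in Q5_Q5 to 1.79% at 2.5 µg, with overlapping Wilson intervals in all 6 libraries. Ighv1-82 ranged from 2.16% at 1 µg (interval 1.95 to 2.39) to 2.61% in Q5_vent (interval 2.40 to 2.85), and the interval of Q5_vent also lay just above that of 5 µg (2.22 to 2.39). Between 5 µg and 500 ng, which asks whether the amount of DNA changes recovery, the ratio of shares was 1.05 for Ighv1-80 (interval 0.885 to 1.23) and 0.960 for Ighv1-82 (interval 0.835 to 1.10). Between Q5_Q5 and Q5_vent, which asks the same of the polymerases, it was 0.947 (interval 0.805 to 1.11) and 0.975 (interval 0.856 to 1.11). All 4 intervals included 1, where 3.74% of 107 V genes had an interval excluding 1 in the input comparison and 3.57% of 84 in the polymerase comparison. Changes inside these intervals were not detectable at this depth, and with 1 library per group no p-value was computed.

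The partners of the V genes did not choose them and were compared with those of the other Ighv1 genes, library by library, among productive sequences. The test was an exact two-sided sign-flip permutation test over the 6 within-library differences, whose smallest possible p is 0.0312. After Benjamini-Hochberg adjustment, no comparison can reach 0.05 unless most of its set sit at that smallest p together. A count of 0 passing therefore cannot decide whether an individual measure differs, and no likeness to the family is read from it. The J gene supplies the end of the CDR3 and the start of framework 4. Ighv1-80 was joined to Ighj1 in 15.7% ± 3.3 (SD, n = 6 libraries), Ighj2 in 32.4% ± 2.2, Ighj3 in 23.8% ± 1.7 and Ighj4 in 28.1% ± 2.3 of productive sequences. Ighv1-82 was joined to them in 17.3% ± 1.8, 33.9% ± 2.7, 22.0% ± 2.4 and 26.9% ± 1.2. The other Ighv1 genes had 18.1%, 31.1%, 23.0% and 27.8%. Mean differences from them were largest for Ighj2 with Ighv1-82, at 2.72 points. Pooled over the sequences of all libraries, that difference was 1.68 points, with a counting interval of 0.332 to 3.03. The pooled intervals of the other J comparisons included 0.

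Ighj2 with Ighv1-82 was the one J partner that stood to one side in every library. Its share was 34.4%, 33.5%, 32.2% and 29.9% from the lowest input to the highest, then 35.5% in Q5_vent and 37.6% in Q5_Q5. The other Ighv1 genes had 31.3%, 31.4%, 30.8%, 29.2%, 33.6% and 30.5% in the same order. The mean difference was 2.72 ± 2.32 percentage points (SD, n = 6), higher in 6 of 6 libraries (exact permutation p = 0.0312, adjusted p = 0.25 over the 8 J comparisons and 0.125 over 36 Ighv1 genes). It did not pass the correction, and over the 8 J comparisons it could not have done so alone. Of those 36 genes 16.7% were likewise higher in Ighj2 in 6 of 6 libraries. Ighv1-80 with Ighj1 was low in the 500 ng library, at 10.4% of 135 sequences, and between 13.6% and 18.8% in the others. By this test 0 of 8 J comparisons passed an adjusted p of 0.05, and 1 had an unadjusted p below 0.05, which needs the same side in all 6 libraries. Over the 36 Ighv1 genes and 4 J genes, 17.4% of pairs did so.

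Among out-of-frame sequences, given as a description, Ighj3 made up 29.7% for Ighv1-80 (interval 24.5 to 35.4), against 24.4% of its productive sequences. For Ighv1-82 it made up 28% (interval 23.9 to 32.4), against 22.7%. In the other Ighv1 genes Ighj3 made up 29.9% of out-of-frame and 23.7% of productive sequences. Ighj3 was thus more frequent among out-of-frame sequences in all 3, and the difference between these shifts was not tested. Ighj4 ran the opposite way, with 22.8% of out-of-frame sequences for Ighv1-80, 22.4% for Ighv1-82 and 23.1% for the other Ighv1 genes.

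Mean D family shares differed from the family's by up to 3.18 points, for DSP2 with Ighv1-80. DFL16 (Ighd1) was in 41.0% ± 0.9 of productive Ighv1-80 and 41.4% ± 2.6 of productive Ighv1-82 sequences (SD, n = 6), against 41.0% in the other Ighv1 genes. DSP2 (Ighd2) was in 36.3% ± 3.3 and 38.6% ± 1.8, against 39.5%. DST4 (Ighd3) was in 8.06% ± 1.33 and 8.23% ± 1.13, against 6.74%. DQ52 (Ighd4), the D gene nearest the J genes, was in 7.0% ± 1.1 and 6.41% ± 1.75, against 6.62%. Pooled over the sequences of all libraries, counting intervals of the difference from the other Ighv1 genes excluded 0 for DSP2 in both genes. They were -4.73 to -1.56 points for Ighv1-80 and -3.10 to -0.294 for Ighv1-82. The intervals also excluded 0 for DQ52 in Ighv1-80 (0.113 to 1.84) and DST4 in Ighv1-82 (0.788 to 2.39). Those of the other D comparisons included 0.

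The 2 D families farthest from the rest of the family were DSP2 and DST4. DSP2 with Ighv1-80 was lower than in the other Ighv1 genes by 3.18 ± 3.51 points, lower in 5 of 6 libraries (exact permutation p = 0.0625, adjusted p = 0.167), and Q5_Q5 with 30.1% lay below the 35.6% to 39.3% of the other libraries. DST4 was higher in 5 of 6 libraries for each gene, by 1.32 ± 1.35 points for Ighv1-80 and 1.49 ± 1.12 points for Ighv1-82 (exact permutation p = 0.0625 and adjusted p = 0.167 for both). Of the 36 Ighv1 genes, 0 were higher and 5 lower in DST4 in 6 of 6 libraries. By this test 0 of 8 D comparisons passed the adjusted threshold and 0 had an unadjusted p below 0.05, against 15.3% of pairs of an Ighv1 gene and a D family. The single D gene most often called was Ighd1-1, in 39.5% of productive Ighv1-80 and 40.9% of productive Ighv1-82 sequences, against 39.5% in the other Ighv1 genes. Sequences without a D call made up 6.61% for Ighv1-80, 4.36% for Ighv1-82 and 5.22% for the other Ighv1 genes, with intervals of 5.85 to 7.46 and 3.82 to 4.97 for the pair.

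**Figure D3:**
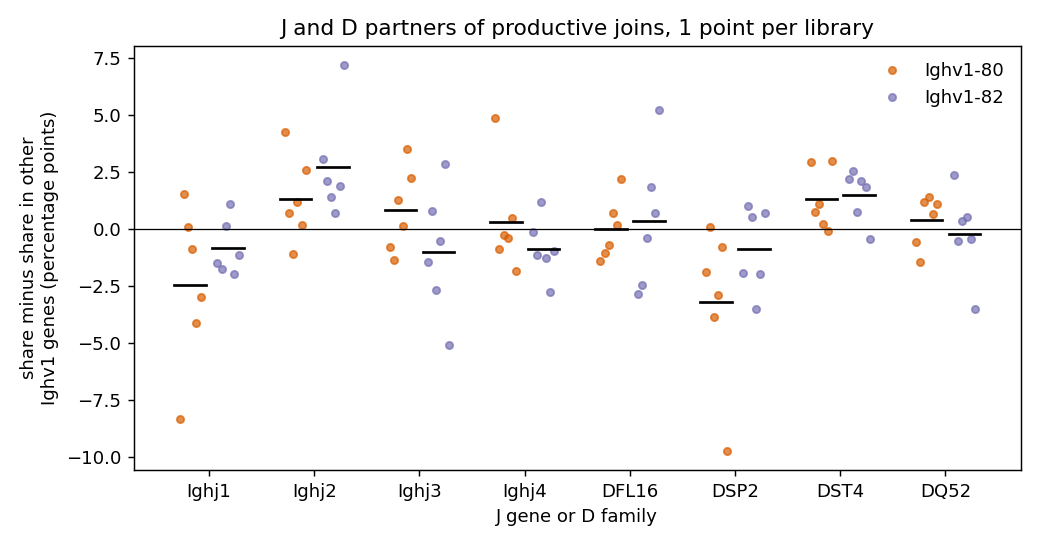
Share of each J gene and D family among productive sequences minus the share in the other Ighv1 genes (vertical axis, percentage points), 1 point per library and gene, with black lines for the means over 6 libraries. Points of Ighv1-82 with Ighj2 all lie above 0, and the other partners scatter on both sides of it.

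The CDR3s of Ighv1-80 were slightly shorter than those of the other Ighv1 genes in every library. Their mean length in productive sequences was 37.2, 37.4, 37.4 and 37.5 bases from the lowest input to the highest, 37.1 in Q5_vent and 37.5 in Q5_Q5, while the other Ighv1 genes ranged from 38.0 to 38.1. The groups of values did not overlap, and the mean difference was -0.67 ± 0.17 bases (SD, n = 6), lower in 6 of 6 libraries (exact permutation p = 0.0312). The adjusted p was 0.0938 both over the 12 CDR3 comparisons and over 36 Ighv1 genes, of which 22.2% were shorter than the rest in 6 of 6 libraries. For Ighv1-82 the difference was -0.41 ± 0.38 bases, lower in 5 of 6 libraries (exact permutation p = 0.0625, adjusted p = 0.15), with Q5_Q5 at 38.3 bases against 38.1. Both differences were smaller when only single-gene V calls were used. They were then -0.379 bases for Ighv1-80 (exact permutation p = 0.03125) and -0.198 bases for Ighv1-82 (exact permutation p = 0.1875). The size of the length gap thus depends on the several-gene calls.

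The length distributions nearly coincided. Both genes had a median of 12 residues with quartiles of 11 and 14, against a median of 13 and the same quartiles in the other Ighv1 genes. The commonest length was 11 residues for Ighv1-80, in 17.0% of productive sequences, and 12 residues for Ighv1-82, in 18.6%. CDR3s of 51 bases or longer made up 3.67% and 3.76%, against 5.14% in the other Ighv1 genes. No productive CDR3 of either gene was shorter than 27 bases, and only 27 of 94910 were in the other Ighv1 genes. Among all V genes other than the pair, 1519 of 158962 productive CDR3s were shorter than 27 bases, the shortest with 18. In the other Ighv1 genes the edge was sharp, with 6311 sequences at 9 residues and 21 at 8. The cause of this edge was not tested, and the means and medians of length describe distributions that it bounds. Out-of-frame CDR3s averaged 37.9 bases for Ighv1-80 and 38.0 for Ighv1-82, against 39.0 in the other Ighv1 genes.

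**Figure D4:**
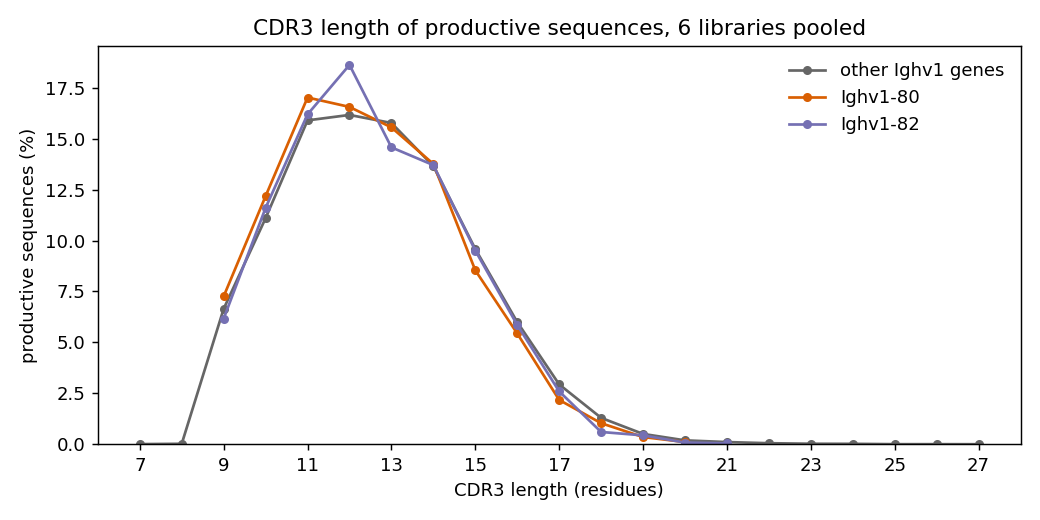
Percent of productive sequences (vertical axis) at each CDR3 length in residues (horizontal axis) for Ighv1-80, Ighv1-82 and the other Ighv1 genes, 6 libraries pooled. All 3 curves start at 9 residues apart from 27 shorter sequences of other Ighv1 genes, and Ighv1-82 peaks at 12 residues with 18.6%.

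The CDR3 opened with alanine and arginine, the residues of the V gene's own end, in 88.9% ± 0.9 of productive Ighv1-80 and 84.2% ± 2.0 of productive Ighv1-82 sequences (SD, n = 6), against 80.4% in the other Ighv1 genes. The difference was 8.51 ± 1.10 points for Ighv1-80 and 3.77 ± 2.08 for Ighv1-82, higher in 6 of 6 libraries for each (exact permutation p = 0.0312, adjusted p = 0.0938 over the 12 CDR3 comparisons and 0.0363 over 36 Ighv1 genes). Of those 36 genes 75% were also higher in 6 of 6 libraries, so the direction is shared by most of the family. By mean difference from the rest of the family, Ighv1-80 ranked 8 and Ighv1-82 ranked 27 of the 36. Most of the 36 thus had a larger difference than Ighv1-82. Some of the other Ighv1 genes end in other bases. Between the pair, Ighv1-82 was lower by 4.74 ± 1.34 points in 6 of 6 libraries (exact permutation p = 0.0312, adjusted p = 0.266 over 17 measures), although both genes end in the same bases.

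Residue content was compared with that of the other Ighv1 genes. Tyrosine, the commonest residue of mouse CDR3s, made up 20.2% ± 0.6 of each CDR3 on average for Ighv1-80 and 20.9% ± 0.9 for Ighv1-82, against 20.9%. By mean difference in tyrosine from the rest of the family, Ighv1-80 ranked 34 and Ighv1-82 ranked 17 of 36 Ighv1 genes, from high to low. Mean net charge, counted as lysine and arginine minus aspartate and glutamate, was -0.24 ± 0.12 and -0.35 ± 0.09, against -0.30. A cysteine was found in 2.09% ± 0.71 and 2.5% ± 0.75 of CDR3s, against 2.09%. Tests of these 3 measures gave exact permutation p values from 0.125 to 0.969. Pooled counting intervals of the difference from the other Ighv1 genes excluded 0 for tyrosine in Ighv1-80 (-1.07 to -0.480 points). For net charge they excluded 0 in Ighv1-80 (0.00739 to 0.0846) and in Ighv1-82 (-0.0799 to -0.0117). Those of tyrosine in Ighv1-82 and of cysteine in both genes included 0.

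Hydropathy on the Kyte-Doolittle scale, where higher is more hydrophobic, averaged -0.71 ± 0.03 for Ighv1-80, -0.65 ± 0.03 for Ighv1-82 and -0.69 for the other Ighv1 genes. Ighv1-82 was higher than the other Ighv1 genes in 6 of 6 libraries, by 0.0346 ± 0.0293 (exact permutation p = 0.0312, adjusted p = 0.0938), and 13.9% of 36 Ighv1 genes were likewise higher in 6 of 6. It was also higher than Ighv1-80 in 6 of 6 libraries, by 0.0536 ± 0.0462 (exact permutation p = 0.0312, adjusted p = 0.266). By this test 0 of 12 CDR3 comparisons passed the adjusted threshold over the comparisons and 4 had an unadjusted p below 0.05, where 38% of pairs of an Ighv1 gene and a CDR3 measure did. With only 4 of 12 at the smallest possible p, none could pass that threshold.

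At the joins themselves, terminal transferase adds bases between the segments. Productive Ighv1-80 sequences had 4.45 ± 0.30 bases between V and D and 3.20 ± 0.15 between D and J (SD, n = 6), and Ighv1-82 sequences 4.43 ± 0.16 and 3.19 ± 0.17. The other Ighv1 genes had 4.56 and 3.25. At least 1 mismatch to the germline V gene was found in 5.18% ± 2.07 of Ighv1-80 and 4.85% ± 2.00 of Ighv1-82 productive sequences, against 5.28%. For both genes and for the rest of the family, Q5_Q5 had the lowest share, at 2.12%, 1.15% and 1.96%. By the sign-flip test 0 of 6 junction comparisons passed the adjusted threshold and 0 had an unadjusted p below 0.05, the smallest exact permutation p being 0.0938. Of pairs of an Ighv1 gene and a junction measure 17.6% did. Pooled over libraries, the counting interval excluded 0 for bases between V and D in Ighv1-82 (-0.257 to -0.0819). Those of the other junction comparisons included 0.

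Ighv1-80 and Ighv1-82 were compared with each other over 17 measures of partners, CDR3 and junction. By the same test 0 of 17 passed the adjusted threshold, and the 2 with an unadjusted p below 0.05 were the alanine-arginine start and hydropathy. With only 2 of 17 at the smallest possible p, none could pass that threshold. Pooled over the sequences of all libraries, intervals that cover counting error alone excluded 0 for 5 of the 17 measures (Ighv1-82 minus Ighv1-80): the alanine-arginine start (-6.88 to -3.95 points), hydropathy (0.0236 to 0.0706), tyrosine (0.480 to 1.26 points), net charge (-0.142 to -0.0416) and bases between V and D (-0.290 to -0.0335). The last 3 did not keep one direction over the libraries, with exact permutation p values of 0.281, 0.219 and 0.844. The difference in Ighj2 was 1.42 ± 2.07 points (Ighv1-82 minus Ighv1-80), with a pooled counting interval of -0.999 to 2.99. The difference in CDR3 length was 0.26 ± 0.38 bases, with a pooled interval of -0.00471 to 0.545.

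Single joins that recurred are printed as examples. They were chosen for recurring, which was rare, so they need not be typical of these CDR3s. For each gene they are the 3 productive clones found in most libraries, and capitals mark bases that lie between segments and align to none of them.
Ighv1-80 to Ighj2: gcaagaGactgggCCCTctttgactac
Ighv1-80 to Ighj3: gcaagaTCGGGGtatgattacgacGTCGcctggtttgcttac
Ighv1-80 to Ighj1: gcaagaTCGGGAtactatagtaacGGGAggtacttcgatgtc
Ighv1-82 to Ighj1: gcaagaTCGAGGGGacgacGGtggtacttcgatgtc
Ighv1-82 to Ighj2: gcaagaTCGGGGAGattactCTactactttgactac
Ighv1-82 to Ighj1, second: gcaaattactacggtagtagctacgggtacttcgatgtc

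The first Ighv1-80 clone, with CDR3 residues ARDWALFDY, was seen 4 times in 3 libraries. The first Ighv1-82 clone, ARSRGRRWYFDV, was seen 13 times, 2 at 1 µg, 4 at 2.5 µg, 6 at 5 µg and 1 in Q5_vent. The last clone printed, ANYYGSSYGYFDV, has no base between its aligned segments and was seen 3 times in 2 libraries. Of the 6 clones, 5 keep the whole gcaaga end of the V gene.

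Recurrence was rare in both genes. Of Ighv1-80 clones 16 of 3961 (0.404%, interval 0.249 to 0.655) and of Ighv1-82 clones 28 of 5269 (0.531%, interval 0.368 to 0.767) were found in 2 or more libraries, against 0.648% of other Ighv1 clones. The largest number of sequences of 1 clone in 1 library was 3 for Ighv1-80 and 6 for Ighv1-82. Of the clones of each gene, 99.1% and 99.2% were seen in a single sequence.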

How the data were processed

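Each deposited file holds 1 row per deduplicated sequence of 1 library, with V, D and J calls, a CDR3 and flags for productive and in-frame joins. Bowtie2 2.3.2, Trim Galore 0.4.4 and the build mm10 are listed, per the submitters' processing notes. The sources used here do not state the version of the V, D and J caller or any filter on rows. V identity is a fraction of aligned bases per the file headers and was used here to pick exact V sequences. Lengths between segments are deposited in bases.

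From these, sequences were counted by first V call and, as an alternative, by clone. Productive, in-frame with stop and out-of-frame joins were separated by the flags. Shares carry Wilson and ratios Katz 95% intervals, which cover counting error only. Measures of productive sequences were averaged per library and compared with an exact two-sided sign-flip permutation test over 6 libraries, adjusted by Benjamini-Hochberg. The same test was run on the 36 Ighv1 genes with at least 500 productive sequences, each against all other Ighv1 genes. Scripts were tested on simulated data. Named genes were both members, listed neighbours, the 5 nearest in log2 ratio, every J gene and 4 D families. The members and lists were chosen with earlier results of these data known. Coordinates are RefSeq's for GRCm38.p6, in which 87 of the 89 V genes were found. Alternatives were clones, single-gene calls, other comparison genes, pooled libraries, a trailing number in the sequence name (taken as reads per sequence) of 5 or more, no unclear primer tags, V alignments of at least 150 bases, all sequences that are not productive as denominator, productive sequences alone, no clones found in several libraries, and leaving out each library. Tests used SciPy 1.17.1 with NumPy 2.4.6, tables pandas 2.3.3 and figures matplotlib 3.10.9, under Python 3.11.15.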

Additional observations from a re-analysis of the deposited data

How the results depend on the processing

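The sign-flip test compares genes within each library. A replicate block could not be fitted, since each group has 1 library. The log2 ratio of productive over out-of-frame share kept its direction in both genes under every alternative run. This contrast chose the genes and the alternatives reuse the same sequences, so the kept direction is no independent support. Leaving out 1 library at a time gave a log2 ratio of 2.18 to 2.37 for Ighv1-80 and 1.84 to 1.91 for Ighv1-82. With V alignments of at least 150 bases Ighv1-82 moved to 2.12, and productive per out-of-frame sequence relative to other Ighv1 genes moved from 1.33 to 1.59 (log2). Against all other V genes the latter was 1.93, and 2.34 in place of 1.75 for Ighv1-80. Against all other V genes, 5 of 8 J comparisons had an adjusted p of 0.05 (exact sign-flip test), and the cause was not tested. These were Ighj1 by -3.76 points and Ighj2 by 3.14 for Ighv1-80, and Ighj1 by -2.17, Ighj2 by 4.56 and Ighj4 by -1.93 for Ighv1-82. All 5 sat at the smallest possible p and passed only together, and no background share of V genes was computed. Pooled, the other Ighv1 genes lay to the same side of all V genes outside the pair. They had 18.5% against 19.8% for Ighj1, 30.3% against 28.4% for Ighj2 and 27.5% against 28.6% for Ighj4. The direction is thus not particular to the pair. With 5 libraries the smallest p is 0.0625, so leaving a library out gives values and no test.

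In the main run 0 comparisons had passed the adjusted threshold of the sign-flip test over their own set. The differences whose sign turned could therefore include none that had passed. Leaving out 1 library turned 25 signs over 14 measures, among them Ighj4 of Ighv1-80 to -0.593 points without 500 ng and DFL16 of Ighv1-82 to -0.627 without Q5_Q5. Pooling the libraries turned 4, among them Ighj1 of Ighv1-82 from -0.851 to 0.102 points. Against all other V genes, Ighv1-80 had Ighj4 at -0.755 points, DFL16 at 0.982, DQ52 at -0.00628, cysteine at 0.307, bases between V and D at 0.167 and between D and J at 0.019. Ighv1-82 had net charge at 0.00257, with 0.142 bases between V and D (from -0.129; exact permutation p = 0.0312, not past the adjusted threshold) and 0.0104 between D and J. With a trailing number of 5 or more, Ighv1-80 had Ighj4 at -0.106 and DFL16 at 0.182, and the pair differed by 0.0279 bases between D and J. Without unclear primer tags, DFL16 was 0.0281 and cysteine 0.105 for Ighv1-80, and the pair's DST4 difference -0.135. With single-gene calls, cysteine was 0.0999 for Ighv1-80 and the pair's D to J difference 0.0106 bases. Library ratios stayed within their intervals under every alternative run. Out-of-frame counts of 8 to 37 in the 4 smaller libraries limit the within-library ratios.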

Other observations

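The residue after the alanine-arginine start was looked at after its values were seen, so it carries no test. Shares are of all productive CDR3s, pooled over libraries unless given by library. Of these, 88.8% for Ighv1-80, 83.4% for Ighv1-82 and 80.5% for the other Ighv1 genes had that start. The shares thus also reflect how often the start was present. Serine followed in 19.5% of productive Ighv1-80 CDR3s (interval 18.3 to 20.8) and 17.4% of Ighv1-82 CDR3s (interval 16.4 to 18.5), against 14.4% in the other Ighv1 genes. By library it ranged from 17.3% to 23.9% for Ighv1-80 and from 16.1% to 21.0% for Ighv1-82, all above the 13.8% to 14.7% of the other Ighv1 genes. Of 36 Ighv1 genes each set against the rest of the family, 27.8% were higher in 6 of 6 libraries, and by mean difference Ighv1-80 ranked 6 and Ighv1-82 ranked 12. Glutamate followed in 9.36%, 10.5% and 7.98%, and arginine in 8.78%, 5.88% and 9.10%, in the same order of genes.

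The CDR3 kept the whole gcaaga end of the V gene in 83.6% of productive Ighv1-80 and 78.7% of productive Ighv1-82 sequences, against 74.2% in the other Ighv1 genes, some of which end in other bases. Of the 36 Ighv1 genes 77.8% kept it more often than the rest in 6 of 6 libraries, and by mean difference Ighv1-80 ranked 7 and Ighv1-82 ranked 24. Among out-of-frame sequences the end was kept in 76.4% and 70.4%, against 56.3%, a wider gap than among productive sequences that was not tested. The gaps are not over the same mix of other Ighv1 genes. Ighv1-11, for example, had 101 productive and 1247 out-of-frame sequences. Where the end was kept, the bases tc came next in 21.4%, 20.3% and 17.4%. Among out-of-frame sequences with the end kept, tc came next in 16.9% for Ighv1-80 (interval 12.4 to 22.7), 14.6% for Ighv1-82 (interval 11.0 to 19.0) and 13.1% for the other Ighv1 genes.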
